A study of Mus musculus with 12 samples.

Results

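The genes of oxidative phosphorylation were taken from the deposited table by symbol: protein coding genes whose names begin mt-, Nduf followed by a, b, c, s or v and a number, Uqcr, Cox4 to Cox8 with a letter or Atp5, together with Sdha, Sdhb, Sdhc, Sdhd, Cyc1 and Cycs. The rule used names and no measured value. It found 100 of the 54532 genes in the table, 13 of them encoded by the mitochondrial genome and 87 by the nucleus. Of these, 92 passed the filter on low values (3 or more of the 12 libraries with 1 FPKM or more) and were tested. They were all 13 mitochondrial genes and 79 nuclear genes. FPKM counts fragments per length of gene, relative to the size of the library, and the deposited values carry a further scaling between libraries. The 8 genes under the filter were Cox4i2, Cox6a2, Cox6b2, Cox7b2, Cox8b, Cox8c, Ndufa4l2 and a second gene listed under the symbol Atp5o, none of which reached 10 fragments in any library. Atp5s met the naming rule although its product is not a subunit of ATP synthase, and Ndufa4 was counted with complex IV, where its product is found.

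Colonoids are cultures of colonic epithelial cells grown in a gel as hollow spheres. They were made from adult control mice, which carry floxed Hmox1 alleles (Hmox1 fl/fl), and from mice that also carry Cre recombinase under the Vil1 promoter, which is active in the epithelium of the villi and crypts, so that Hmox1, the gene of heme oxygenase-1, which breaks heme down, should be deleted in epithelial cells (Hmox1 KO). Each genotype was exposed to vehicle or to 200 µM hemin, the oxidised form of heme, for 24 hours, and poly-A RNA of 3 libraries per group was sequenced. All 4 groups therefore share the floxed alleles, and the control groups lack the Cre. The labels give the genotype of hemin replicate 3 of the KO as floxed alleles with Vil1 Cre and that of the other KO libraries as Hmox1 KO with Vil1 Cre, and nothing states whether the libraries in a group are from separate animals or cultures, so that the p-values below measure the spread between libraries, which may be technical.

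Oxidative phosphorylation is carried out by 5 protein complexes of the inner mitochondrial membrane. Complex I takes electrons from NADH and complex II from succinate, complex III passes them to cytochrome c, and complex IV hands them to oxygen, while the proton gradient so built drives ATP synthesis in complex V. Complex II is encoded wholly by nuclear genes, and the other complexes combine nuclear subunits with a few that are made inside the organelle from its own genome. Heme is a working part of complexes II, III and IV and of cytochrome c, and iron-sulfur clusters of complexes I, II and III, and differentiated colonocytes are known to burn butyrate by this route.

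The libraries held between 11648801 and 25101868 fragments counted to genes. Hmox1, the targeted gene, stood at 7.62, 6.85 and 7.90 FPKM in the control libraries with vehicle and at 3.14, 2.11 and 2.31 FPKM in those labelled KO. With hemin it stood at 503, 483 and 382 FPKM in controls and at 1279, 1393 and 1271 FPKM in the libraries labelled KO. In the libraries labelled KO the values with vehicle were thus lower than in controls, and those with hemin higher. A value per gene cannot show whether the floxed part of Hmox1 was deleted. These libraries are called labelled KO throughout. Control hemin replicate 3 stood apart from its group. The fifth of genes lowest in GC content was 0.33 higher (log2) in it than in its group mates and the fifth highest in GC content 0.42 lower, and the 16 nuclear members with a transcript under 700 bases were 0.55 lower. Atp5k, a small subunit of ATP synthase, shows the size of this: 115 and 97.9 FPKM in control hemin replicates 1 and 2 against 8.48 FPKM in replicate 3. The main counts are therefore also given without it. All 9 epithelial markers (Epcam, Cdh1, Vil1, keratins and others) passed the filter. None of 7 markers of stroma and endothelium or of 4 of muscle did. Of 6 leukocyte markers 1 passed the filter. Its log2 change with hemin in the labelled KO was 1.14, and its difference from controls with vehicle there was -0.82.

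The 13 mitochondrial genes took more of each library than the 87 nuclear genes. They held 2.41% to 3.36% of fragments in control colonoids with vehicle, 3.11% to 4.75% with hemin, 2.21% to 2.35% in the labelled KO with vehicle and 2.76% to 3.46% with hemin. The labelled KO ranges with vehicle and with hemin did not overlap, whereas those of controls did, and the highest control value with hemin was that of replicate 3. The nuclear genes held 1.42% to 1.45%, 1.37% to 1.62%, 1.48% to 1.49% and 1.28% to 1.33% of fragments in the same order, so that the lowest nuclear shares were those of the labelled KO with hemin. Shares of fragments are set by every other transcript in the library as well, and gene by gene the deposited FPKM give another picture, below.

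**Figure D1:**
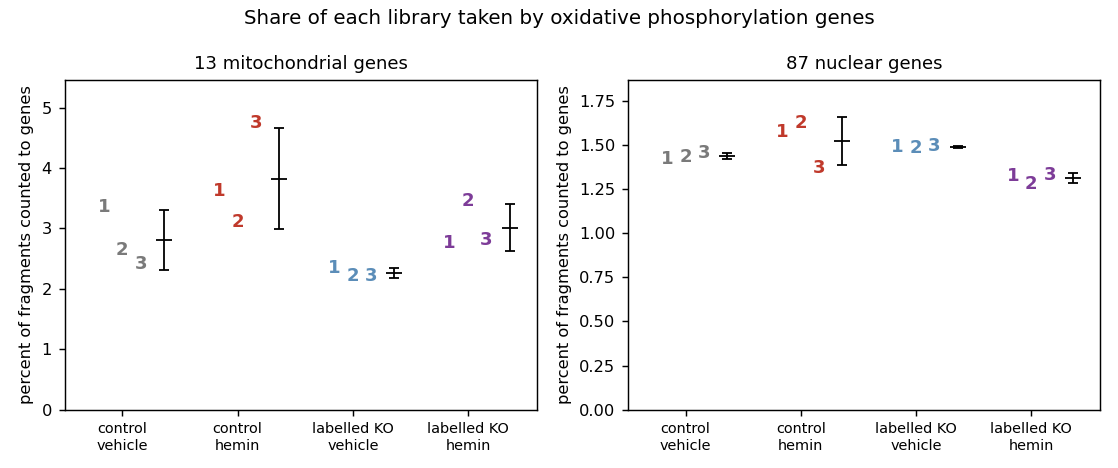
Percent of fragments counted to genes (y axis, from 0) that fell on the 13 mitochondrial genes (left) and the 87 nuclear genes (right) in each group; each digit is a library, named by its replicate number, and the bar is the mean ± SD of 3. Control hemin replicate 3 has the highest mitochondrial share, 4.75%, and the lowest nuclear share of its group, 1.37%; the labelled KO with hemin holds 1.28% to 1.33% on the nuclear genes.

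Within the nuclear genes, levels per length differed by complex. In control colonoids with vehicle the median tested nuclear subunit of complex I stood at 46.0 ± 1.1 FPKM (SD of the library medians, n = 3, 35 genes), that of complex II at 81.7 ± 4.0 (4 genes), of complex III at 106 ± 2.1 (9 genes), of complex IV at 121 ± 9.5 (13 genes) and of complex V at 73.0 ± 8.3 (16 genes). The most abundant nuclear members, averaged over the 12 libraries, were Cox6a1 at 654 FPKM and Cox8a at 633 FPKM, both small subunits of complex IV, and Atp5a1 at 493 FPKM and Atp5b at 405 FPKM, the catalytic-core subunits of ATP synthase. With hemin the library medians were 46.8 to 65.8 FPKM for complex I, 82.0 to 85.3 for complex II, 105 to 168 for complex III, 147 to 163 for complex IV and 74.4 to 107 for complex V in controls, and the low end for complexes I, III and V was control hemin replicate 3 each time. In the labelled KO they were 45.7 to 47.6 with vehicle and 51.4 to 54.1 with hemin for complex I, 73.3 to 73.7 and 69.7 to 75.4 for complex II, 114 to 119 and 132 to 152 for complex III, 115 to 119 and 124 to 134 for complex IV and 64.0 to 71.2 and 74.3 to 83.0 for complex V. The vehicle and hemin ranges of the labelled KO did not overlap in complexes I, III, IV and V, with hemin the higher on this FPKM scale. That direction depends on the scaling: the median hemin response of the nuclear members in the labelled KO, 0.14 on this scale, was -0.20 under TPM (values rescaled to a common sum) and -0.06 when scaled to nuclear protein coding genes.

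The first comparison asked how hemin changed these genes in control colonoids. A gene rose or fell where the Benjamini-Hochberg adjusted p of limma, taken over all 12740 tested genes, was under 0.05. Of the 92 tested members 36 rose and 2 fell, against 23.2% of all tested genes that rose and 26.7% that fell. The vehicle and hemin libraries did not overlap for 40 members, and for 52.4% of all genes. The median change was 0.23 (log2 of FPKM + 1) over the members and -0.01 over all tested genes. No member passed 1 in absolute log2 fold change, which 2.17% of all genes did upward and 5.93% downward. Without control hemin replicate 3, 2 nuclear members of complex I passed it upward (1.22 and 1.03). The share of all genes past 1 was not counted in that fit. Mitochondrial and nuclear genes moved the same way: 6 of 13 mitochondrial genes rose and none fell (median 0.47), and 30 of 79 nuclear genes rose and 2 fell (median 0.23). Without control hemin replicate 3 these counts were 5 and 0 of 13 (median 0.26) and 49 and 4 of 79 (median 0.33), where 27.1% of all genes rose and 29.5% fell (6 members fell without control hemin replicate 2 and 1 without control vehicle replicate 3), so the difference between the medians, 0.24 with the library, was -0.07 without it. When the values were rescaled to the same sum over all genes in each library (TPM), 6 members rose and 1 fell and the median of all genes moved to -0.18, and when scaled to the nuclear protein coding genes 29 rose and 6 fell; under both, the medians of mitochondrial (0.27 and 0.40) and nuclear members (0.04 and 0.17) stayed above 0.

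Rises were found in every complex, against 23.2% of all tested genes that rose. In complex I, 12 of 35 nuclear subunits rose and 1 fell, in complex II 1 of 4 rose, in complex III 3 of 9, in complex IV 7 of 13 and in complex V 5 of 16, with 1 that fell, and Cycs and Atp5s, which belong to none of the complexes, rose as well. The counts of complexes II, III and V are small and lie near that share, and the share of complex I was like those of complexes III and V. Without control hemin replicate 3, where 27.1% of all genes rose, the rises were 20, 2, 5, 12 and 9 in the same order. Ndufa1, an accessory subunit of complex I encoded on the X chromosome, stood at 60.3, 75.8 and 81.3 FPKM with vehicle and at 167, 171 and 92.5 FPKM with hemin. The hemin libraries were all above the vehicle libraries, and the lowest was replicate 3. Its log2 fold change was 0.93 ± 0.22 (SE, limma adjusted p = 0.0045), or 1.22 without that library. Ndufa7, another accessory subunit of complex I, stood at 46.1, 37.0 and 33.9 FPKM with vehicle and 68.1, 69.2 and 59.9 FPKM with hemin, a change of 0.75 ± 0.10. Among the other nuclear members that rose were Ndufc1 of complex I by 0.68, Cox6c of complex IV by 0.66, Uqcrb of complex III by 0.64 and Atp5j2 of complex V by 0.58. The members that fell were Ndufs8, an iron-sulfur subunit of complex I, from 90.3, 86.0 and 87.5 to 69.3, 76.0 and 79.6 FPKM (-0.23 ± 0.07), and Atp5g1, a gene of the c-ring subunit of ATP synthase, from 27.4, 28.5 and 32.0 to 25.7, 26.2 and 23.1 FPKM (-0.22 ± 0.07). The vehicle and hemin libraries did not overlap in either, but neither fall passed under TPM (adjusted p = 0.090 and 0.098), with only the groups compared (0.065 and 0.11) or with a correction for GC content and length (0.35 and 0.058), all by limma. Accessory and core subunits of complex I were counted apart: 9 of 28 nuclear accessory subunits rose and none fell, and of the 7 nuclear core subunits, the catalytic part, 3 rose and 1 fell, against the same 23.2% and 26.7% of all genes. These were 17 and 0 of 28 and 3 and 2 of 7 without control hemin replicate 3.

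**Figure D2:**
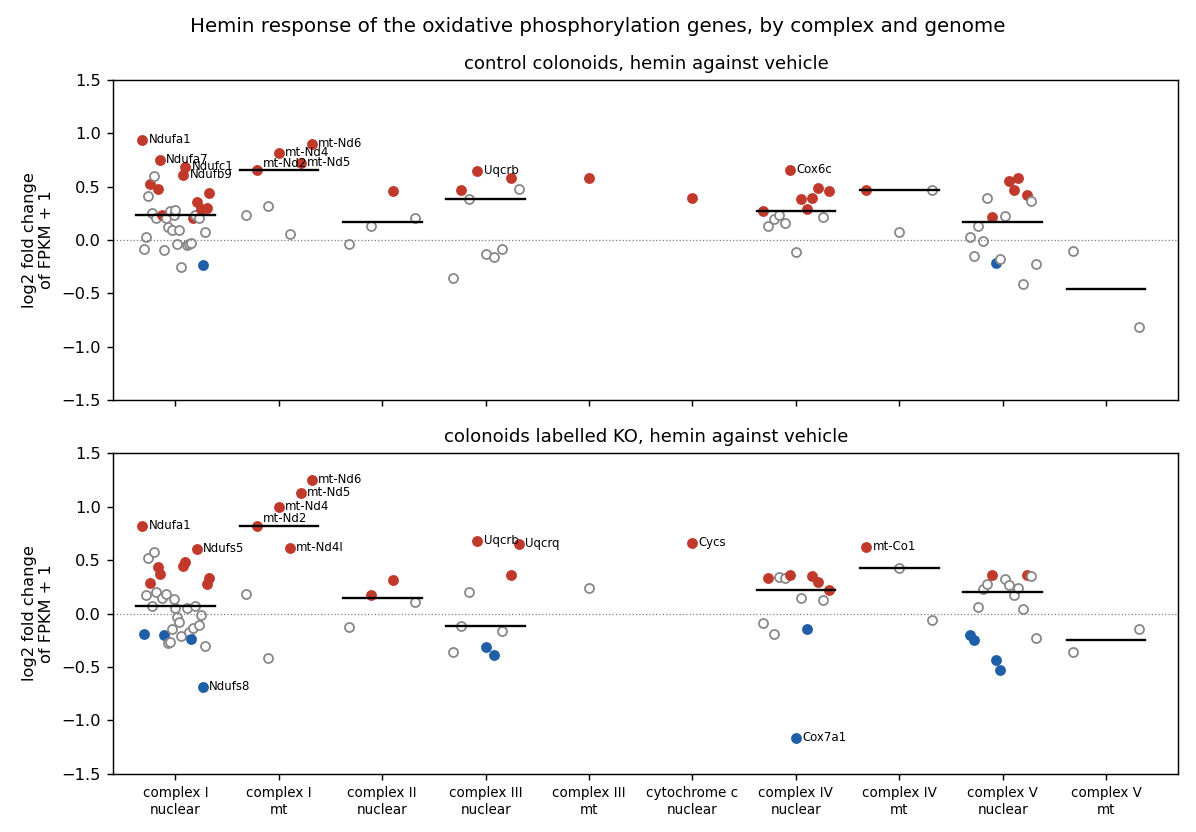
Hemin response (y axis: log2 fold change of FPKM + 1, hemin against vehicle) of each tested subunit by complex and genome, in control colonoids (top) and in the labelled KO (bottom); filled points passed an adjusted p under 0.05 (red higher, blue lower), lines are medians, and genes past 0.6 that passed are named; Atp5s is not drawn. Of the tested members 36 were higher, Atp5s among them, and 2 lower in controls. In the labelled KO 28 were higher and 12 lower, with Cox7a1 and Ndufs8 lowest. There the nuclear median is above 0 here (0.14) and below 0 under TPM (-0.20) or scaling to nuclear genes (-0.06).

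The same comparison was made in the colonoids labelled KO. Here 28 members rose and 12 fell, against 29.9% and 30.4% of all tested genes, the libraries did not overlap for 68 members and 74.4% of all genes, and the median change was 0.17 over the members and 0.00 over all genes. Without control hemin replicate 3, which enters this comparison through the shared estimate of the spread alone, 38 rose and 19 fell, against 34.6% and 34.3% of all genes. The mitochondrial genes again rose where they passed, 6 of 13 with none that fell (median 0.43), while the nuclear genes went both ways, with 22 of 79 that rose and 12 that fell (median 0.14). The sign of that nuclear median depends on the scaling: under TPM it was -0.20, with 0 nuclear members that rose and 20 that fell, while the median of all genes was -0.31, and scaled to nuclear protein coding genes it was -0.06, with 7 and 25 and an all-gene median of -0.20. In all 3 scalings the nuclear members lay above the median of all genes. The mitochondrial median was 0.09 under TPM, where 3 mitochondrial genes rose (mt-Nd4, mt-Nd5 and mt-Nd6) and mt-Nd3 fell (-0.76), and 0.23 scaled to nuclear genes, where 4 rose and none fell. Past an absolute log2 fold change of 1 were mt-Nd5 and mt-Nd6 upward, against 4.87% of all genes, and Cox7a1 downward, against 8.07%.

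The rises in the labelled KO were led by mitochondrial genes of complex I, described below, and by Ndufa1, from 75.6, 61.9 and 79.9 FPKM to 134, 111 and 141 FPKM (0.82 ± 0.22). Uqcrb of complex III rose by 0.68, as did Uqcrq by 0.65, Ndufs5 of complex I by 0.60 and Ndufc1 by 0.48. Cycs, the gene of cytochrome c, rose from 35.0, 32.5 and 32.6 FPKM to 53.5, 52.9 and 53.4 FPKM, with the smallest adjusted p of any member (0.66 ± 0.06, limma adjusted p = 2.5e-06). The falls came from complexes I, III, IV and V. Ndufs8 went from 85.4, 83.8 and 85.6 to 51.3, 56.5 and 49.7 FPKM (-0.68 ± 0.07, limma adjusted p = 5.7e-06). Uqcrc2, a core protein of complex III, went from 101, 97.7 and 95.8 to 78.6, 71.1 and 74.7 FPKM (-0.39 ± 0.08), and Uqcrc1, its partner, fell by 0.32. In complex V the genes of the c-ring subunit, Atp5g1 and Atp5g2, fell by 0.43 and 0.53, and those of the catalytic head, Atp5a1 and Atp5b, by 0.20 and 0.24, while Atp5f1 and Atp5l, genes of smaller subunits, each rose by 0.36. By complex, 9 of 35 nuclear subunits rose and 4 fell in complex I, 2 and 0 of 4 in complex II, 3 and 2 of 9 in complex III, 5 and 2 of 13 in complex IV and 2 and 4 of 16 in complex V, against 29.9% and 30.4% of all genes. In the fit without control hemin replicate 3 these were 11 and 7, 2 and 1, 3 and 4, 7 and 2 and 8 and 5 in the same order, against 34.6% and 34.3%.

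The mitochondrial genome is transcribed from both strands as long precursors that are cut into separate mRNAs, so its 13 protein coding genes can be read against each other within a library, with no scaling between libraries. Their levels fell into sets far apart. Over the 12 libraries mt-Nd1, mt-Nd2, mt-Co1, mt-Nd4, mt-Nd5, mt-Nd6 and mt-Cytb lay between 691 and 17526 FPKM, and mt-Co2, mt-Co3, mt-Atp6, mt-Nd3, mt-Nd4l and mt-Atp8 between 0.833 and 268 FPKM. The genes of the lower set, other than mt-Atp8, share 98.1% to 99.9% of their 31-base windows with 7 pseudogenes next to each other on chromosome 1 (about 24.6 Mb in the deposited coordinates), a copy of a piece of the mitochondrial genome. In mt-Co1 29.6% of windows were shared, in mt-Nd4 62.8% and in mt-Atp8, which overlaps mt-Atp6, 7.47%, while mt-Nd1, mt-Nd2, mt-Nd5, mt-Nd6 and mt-Cytb shared none. The pseudogenes were themselves listed with 0.671 to 406 FPKM. How fragments that match more than 1 place were counted is not given in the sources used here, and its part in the low values was not tested. The stretch below shows where the copy begins inside mt-Co1 (mitochondrial genome, positions 6334 to 6453, + strand, GENCODE M21 transcript): the part in capitals, which runs on to the end of the gene at 6872, is found letter for letter in the pseudogene Gm29216, and the part in lower case is not.

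mt-Co1: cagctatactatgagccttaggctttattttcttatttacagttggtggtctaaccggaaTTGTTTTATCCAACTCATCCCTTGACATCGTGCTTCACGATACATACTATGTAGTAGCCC

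In the 5 genes with no shared window the size of the hemin response varied from gene to gene. In controls the changes lay between 0.23 and 0.90, and between 0.12 and 0.61 without control hemin replicate 3. mt-Nd5, a core subunit of complex I, stood at 1170, 960 and 864 FPKM in controls with vehicle and at 1509, 1322 and 2178 FPKM with hemin (0.72 ± 0.18), and at 937, 840 and 863 FPKM in the labelled KO with vehicle and 1720, 2304 and 1788 FPKM with hemin (1.13 ± 0.18, limma adjusted p = 0.00031). Vehicle and hemin libraries did not overlap in either genotype. mt-Nd6, the only protein coding gene on the opposite strand, went from 1212, 1040 and 827 to 1702, 1403 and 2815 FPKM in controls (0.90 ± 0.24) and from 902, 776 and 793 to 1736, 2411 and 1775 FPKM in the labelled KO (1.25 ± 0.24). Whether the counting used strand is not given in the sources used here, so fragments of mt-Nd6 and of the transcript opposite to it cannot be told apart. mt-Nd2 rose by 0.65 ± 0.20 in controls and 0.82 ± 0.20 in the labelled KO. mt-Nd1, by contrast, stood at 2715, 2543 and 2559 FPKM in the labelled KO with vehicle and 2655, 3565 and 2737 FPKM with hemin, and its changes of 0.23 ± 0.18 in controls and 0.18 ± 0.18 in the labelled KO did not pass. mt-Cytb, the cytochrome b of complex III, rose in controls, from 3927, 3026 and 2806 to 4930, 4418 and 5152 FPKM (0.58 ± 0.14), and in the labelled KO it stood at 2892, 2583 and 2586 FPKM with vehicle and 2881, 3672 and 2979 FPKM with hemin (0.24 ± 0.14, limma adjusted p = 0.16).

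The ratio of 2 of these genes within a library needs no scaling between libraries, and the pairs given here were chosen after the values were seen. The ratio of mt-Nd5 to mt-Nd1, in FPKM, was 0.260 to 0.293 in control libraries with vehicle, 0.352 to 0.451 with hemin, 0.331 to 0.345 in the labelled KO with vehicle and 0.646 to 0.653 with hemin. The 3 labelled KO libraries with hemin lay above every other library and close to each other. The ratio of mt-Nd5 to mt-Cytb was 0.298 to 0.317, 0.299 to 0.423, 0.324 to 0.334 and 0.597 to 0.628 in the same order, so that here the controls with hemin overlapped the controls with vehicle. The ratio of mt-Nd6 to mt-Cytb was 0.295 to 0.344, 0.318 to 0.546, 0.300 to 0.312 and 0.596 to 0.657, and that of mt-Nd2 to mt-Nd1 0.308 to 0.342, 0.383 to 0.512, 0.330 to 0.353 and 0.527 to 0.535. The ratio of mt-Co1 to mt-Cytb was 2.91 to 3.00, 2.38 to 3.40, 2.55 to 2.80 and 3.39 to 3.70, so that here the labelled KO with hemin overlapped the controls with hemin. In each of these 5 ratios the highest control value was that of hemin replicate 3. Among the genes with shared windows, mt-Nd4 rose in both genotypes (0.82 and 0.99), as did mt-Co1 (0.47 and 0.62, the control value being 0.26 and not passing without hemin replicate 3), and mt-Nd4l rose in the labelled KO (0.61). mt-Co2, mt-Co3, mt-Atp6, mt-Atp8 and mt-Nd3 passed in neither genotype, with values between -0.82 and 0.47. mt-Atp8 rests on 2 to 17 fragments a library. The 2 mitochondrial ribosomal RNA genes, which are not members, rose in the labelled KO too, mt-Rnr1 by 1.37 and mt-Rnr2 by 0.96, and mt-Rnr2 rose in controls by 0.68.

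**Figure D3:**
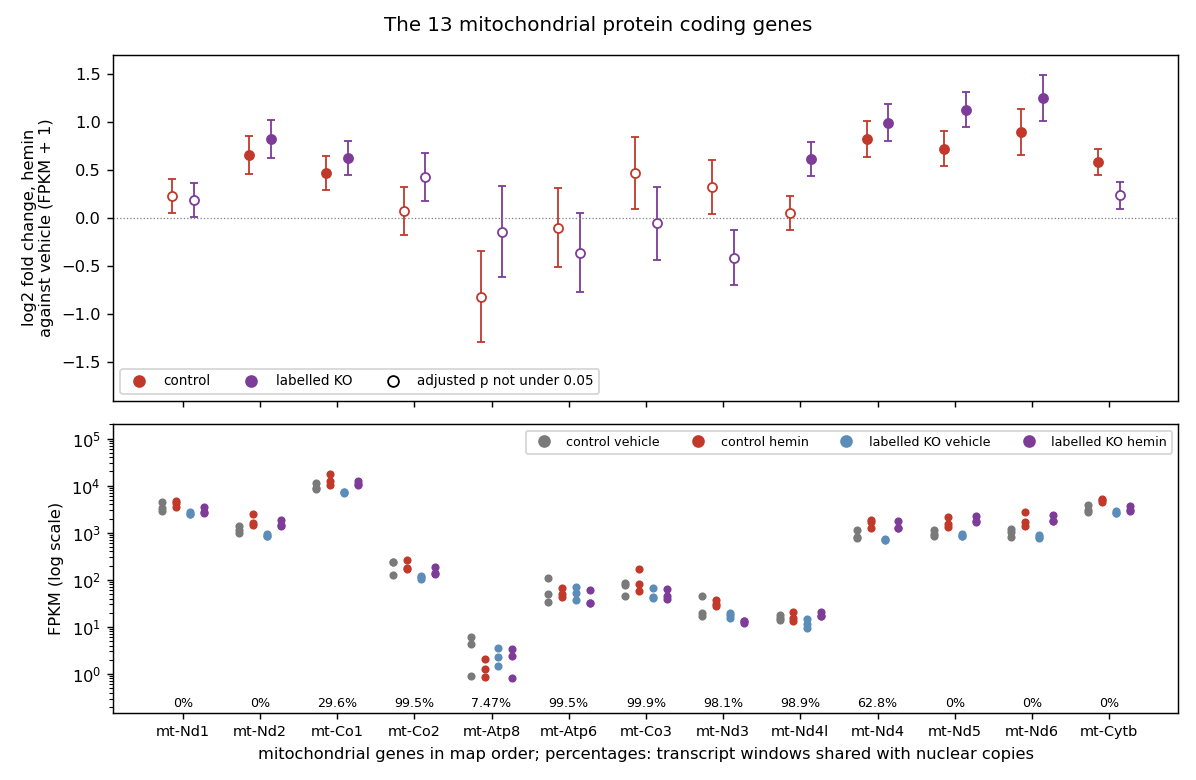
The 13 mitochondrial genes in map order (x axis). Top: log2 fold change of FPKM + 1, hemin against vehicle, ± SE, in controls and in the labelled KO, filled where the adjusted p was under 0.05. Bottom: FPKM of each library on a log scale, with the percent of 31-base windows shared with the pseudogenes on chromosome 1 under each gene. mt-Nd2, mt-Nd4, mt-Nd5 and mt-Nd6 rose in both genotypes, mt-Nd1 in neither, and the genes sharing over 98% of windows lie lowest together with mt-Atp8.

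Because hemin was the agent, the subunits that bind heme and those that hold iron-sulfur clusters were followed as lists. Of the 6 heme-binding genes 4 rose in controls, where 23.2% of all tested genes did, and 3 in the labelled KO, where 29.9% did, with none that fell. Cycs and Sdhc, a membrane anchor of complex II, rose in both: Sdhc stood at 47.7, 45.7 and 47.5 FPKM in controls with vehicle and 62.8, 64.5 and 67.4 FPKM with hemin (0.46 ± 0.05), and at 48.7, 48.0 and 50.3 against 62.4, 59.5 and 61.8 FPKM in the labelled KO (0.32 ± 0.05, but -0.02 under TPM). mt-Co1 also rose in both, and mt-Cytb in controls. Sdhd, the other membrane anchor of complex II, stood at 0.20 in controls and 0.11 in the labelled KO without passing, and at 0.33 in controls without hemin replicate 3, where it passed, and Cyc1, the cytochrome c1 of complex III, stood at 143, 149 and 150 FPKM in the labelled KO with vehicle and 119, 108 and 117 FPKM with hemin without passing (-0.36 ± 0.19), but passed as a fall once control hemin replicate 3 was left out (limma adjusted p = 0.0015). Its control value was also -0.36 ± 0.19, with hemin replicate 3 at 73.1 FPKM against 126 and 138 FPKM, and was -0.076 without that library. The vehicle and hemin libraries of the labelled KO did not overlap for Cyc1, as was so for most genes. Of the 7 iron-sulfur genes 2 rose and 1 fell in each genotype, against 26.7% of all genes that fell in controls and 30.4% in the labelled KO. With control hemin replicate 3 left out, 2 rose and 2 fell in controls and 2 rose and 4 fell in the labelled KO. In that fit 27.1% of all genes rose and 29.5% fell in controls, and 34.6% rose and 34.3% fell in the labelled KO. Ndufs8 fell in both, but in controls it did not pass under TPM, with only the groups compared or with the GC and length correction. Ndufv2 of complex I rose in both, by 0.30 and 0.28 (-0.05 under TPM in the labelled KO), Ndufs7 rose in controls (0.29 ± 0.07) and stood at -0.02 in the labelled KO, and Sdhb rose in the labelled KO by 0.17 (-0.17 under TPM and -0.03 scaled to nuclear genes). Ndufs1, Ndufv1 and the Rieske protein gene Uqcrfs1 passed in neither, with values of -0.04, 0.07 and -0.08 in controls and -0.17, -0.31 and -0.16 in the labelled KO. When control hemin replicate 3 was left out, all 3 passed as falls in the labelled KO at the same values, and Ndufs1 passed as a fall in controls (-0.15).

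Several subunits of complex IV come as pairs, a general form and a form of heart, muscle, testis or low oxygen. The colonoids carried the general forms: Cox4i1 at 251 to 389 FPKM, Cox6a1 at 507 to 806, Cox6b1 at 216 to 378, Cox7a2 at 114 to 169, Cox7b at 96.4 to 163, Cox8a at 457 to 849 and Ndufa4 at 75.0 to 133 FPKM. The partners Cox4i2, Cox6a2, Cox6b2, Cox7b2, Cox8b, Cox8c and Ndufa4l2 lay between 0 and 0.470 FPKM. The exception was Cox7a1, the heart and muscle form of subunit VIIa, which passed the filter. It stood at 4.08, 4.92 and 5.98 FPKM in controls with vehicle and 4.75, 4.27 and 4.48 FPKM with hemin, and in the labelled KO at 12, 9.62 and 9.88 FPKM with vehicle and 2.86, 5.16 and 4.56 FPKM with hemin. The 3 labelled KO libraries with vehicle were above the other 9. Its change with hemin in the labelled KO was -1.17 ± 0.17 (limma adjusted p = 0.00012), and it rests on 22 to 105 fragments a library. The 4 muscle markers (Actn2, Ckm, Des and Myh7) summed to 0 to 0.167 FPKM in every library. Cox7a2 rose in controls by 0.38 and stood at 0.14 in the labelled KO, and Cox7b rose in both, by 0.40 and 0.35. Cox6a1, Cox6b1 and Cox8a passed in neither, with values of 0.24, 0.16 and 0.21 in controls and 0.34, 0.34 and 0.12 in the labelled KO. The control values rest on hemin replicate 3, which stood at 507 FPKM for Cox6a1 against 756 and 806 FPKM in the other two; without it all 3 genes rose in controls, by 0.44, 0.41 and 0.48, and Cox6a1 and Cox6b1 passed as rises in the labelled KO.

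The next comparison set the labelled KO against controls, first with vehicle, to see the state before the exposure. Of the 92 members 3 were higher and 5 lower, against 17.4% and 16.8% of all tested genes, and the median difference was -0.02. Under TPM, and also when scaled to nuclear protein coding genes, 3 were higher and only 1 was lower. The genotypes did not overlap for 25 members and 57.5% of all genes. No member passed 1 in absolute log2 fold change, which 3.53% of all genes did upward and 3.27% downward. Without control hemin replicate 3, which is in neither group, 4 were higher and 9 lower, against 23.8% and 21.9% of all genes; without any 1 of the other 11 libraries 1 to 3 were higher and 1 to 5 lower. Higher were Cox7a1 (0.95 ± 0.17), Uqcr10 of complex III (197 to 261 against 295 to 310 FPKM, 0.43 ± 0.12) and Ndufa7 (33.9 to 46.1 against 47.6 to 51.0 FPKM, 0.34 ± 0.10), all 3 among the 16 nuclear members with a transcript under 700 bases. Lower were mt-Co2 (233, 243 and 124 against 118, 102 and 112 FPKM, -0.79 ± 0.25), Ndufa4 (91.4 to 97.5 against 75.0 to 82.0 FPKM, -0.26 ± 0.05), Cox4i1 (297 to 335 against 266 to 277 FPKM, -0.21 ± 0.06), Sdhb (62.9 to 66.1 against 56.5 to 57.2 FPKM, -0.18 ± 0.06) and Ndufa10 of complex I (43.3 to 47.3 against 39.5 to 40.6 FPKM, -0.15 ± 0.05). Of the mitochondrial genes mt-Co2 passed with all libraries in the fit, and mt-Co1 and mt-Nd4l (both -0.40) passed as well without control hemin replicate 3. All 13 had a negative difference (median -0.37, between -0.79 and -0.14). Control vehicle replicate 1 was highest of the 3 in mt-Nd1, mt-Nd2, mt-Nd4, mt-Nd5, mt-Nd6, mt-Cytb and mt-Co1, and without it the difference between the mitochondrial and nuclear medians was -0.25 in place of -0.37.

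With hemin, 0 members were higher in the labelled KO and 21 were lower, against 19.7% and 14.7% of all tested genes, and the genotypes did not overlap for 27 members and 40.9% of all genes. At an unadjusted p under 0.05 1 member was higher, and limma-voom on the recovered fragments gave 0 higher and 22 lower. The median difference was -0.14 over the members and 0.04 over all genes, and it was -0.14 under TPM, where Cox4i1, mt-Cytb and mt-Nd3 were lower, and -0.24 scaled to nuclear genes, where 33 were. Without control hemin replicate 3, 2 members were higher, Cycs (0.19) and mt-Nd5 (0.44), and 38 were lower, against 24.7% and 18.3% of all genes, and without hemin replicate 3 of the labelled KO 0 were higher and 13 lower. The lower members came from every complex: 7 of 35 nuclear subunits of complex I, 1 of 4 of complex II, 2 of 9 of complex III, 6 of 13 of complex IV and 3 of 16 of complex V, and 2 of 13 mitochondrial genes. The nuclear counts were 15, 1, 4, 8 and 8 in the same order without control hemin replicate 3. Cox4i1, the subunit of complex IV that binds ATP, stood at 369, 389 and 370 FPKM in controls and 251, 255 and 259 FPKM in the labelled KO (-0.56 ± 0.06, limma adjusted p = 2.8e-05). Ndufa4 stood at 127, 129 and 133 against 91.9, 93.9 and 90.4 FPKM (-0.49 ± 0.05). Cox7a2l, counted here with complex IV, stood at 169, 163 and 163 against 119, 123 and 114 FPKM (-0.47 ± 0.06). Ndufs8 stood at 69.3, 76.0 and 79.6 against 51.3, 56.5 and 49.7 FPKM (-0.50 ± 0.07). In these 4 genes the groups were wide apart, and the values moved by at most 0.04 when control hemin replicate 3 was left out. Of the mitochondrial genes, mt-Cytb was lower (4930, 4418 and 5152 against 2881, 3672 and 2979 FPKM, -0.61 ± 0.14), and so was mt-Nd3 (36.8, 27.2 and 31 against 13.6, 13.2 and 11.8 FPKM, -1.23 ± 0.28), the member past an absolute log2 fold change of 1, which 2.91% of all genes passed downward and 3.1% upward. mt-Nd3 is among the genes with shared windows. All 7 nuclear core subunits of complex I had a negative difference, 3 of which passed, and of the 28 accessory subunits 20 had a negative difference and 4 passed; 5 and 10 passed without control hemin replicate 3.

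**Figure D4:**
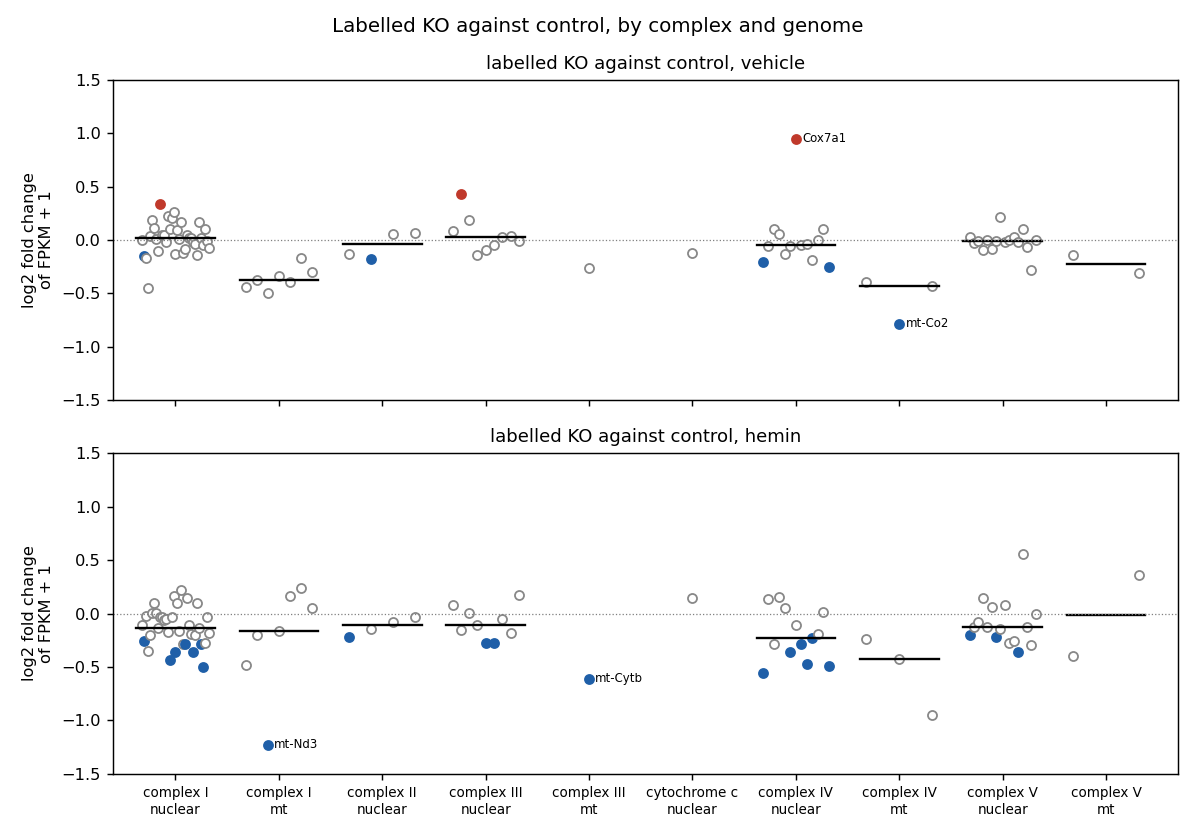
Difference of the labelled KO from controls (y axis: log2 fold change of FPKM + 1) for each tested subunit by complex and genome, with vehicle (top) and with hemin (bottom); filled points passed an adjusted p under 0.05 (red higher, blue lower), lines are medians, and genes past 0.6 that passed are named. With vehicle 3 members are higher and 5 lower and the mitochondrial genes lie below 0 (median -0.37); with hemin none is higher and 21 are lower, 6 of them nuclear subunits of complex IV.

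The comparisons above share groups, so whether hemin acted differently in the 2 genotypes was tested as an interaction of genotype and hemin. The response of 1 of the 92 members was higher in the labelled KO and that of 10 was lower, against 13.3% and 10.5% of all tested genes. The count of lower responses thus lies near the share of all genes. Without control hemin replicate 3 there were 3 and 24, against 20.8% and 16.2% of all genes, and without any other library 0 or 1 and 4 to 9. Under TPM 2 responses were lower, those of Cox7a1 and Uqcr10, and none higher. Of these 11 members, Cox7a1, Ndufs8, Cox7a2l and Cox4i1 passed with each of the 12 libraries left out in turn, and the other 7 were lost in 7 to 11 of the 12, fits that also hold fewer libraries. Cycs was the member whose rise was larger in the labelled KO (0.27 ± 0.08, limma adjusted p = 0.033, passing with 3 of the 12 libraries left out). The largest difference was that of Cox7a1 (-1.06 ± 0.24, limma adjusted p = 0.0084), past 1 in absolute log2 fold change as 2.56% of all genes were downward and 2.57% upward. Uqcr10 stood at 261, 197 and 213 FPKM in controls with vehicle and 339, 288 and 299 FPKM with hemin, and at 295, 296 and 310 against 259, 319 and 254 FPKM in the labelled KO (-0.59 ± 0.17). Ndufs8 fell further in the labelled KO than in controls (-0.45 ± 0.09). Cox7a2l rose in controls, from 138, 132 and 134 to 169, 163 and 163 FPKM, and fell in the labelled KO, from 125, 138 and 131 to 119, 123 and 114 FPKM (-0.43 ± 0.08, limma adjusted p = 0.0024). Cox4i1 rose in controls (0.27) and stood at -0.09 in the labelled KO (-0.35 ± 0.08). Ndufs3 and Ndufs7, core subunits of complex I, rose in controls and not in the labelled KO (-0.34 and -0.31), Ndufa4 rose by 0.45 in controls and 0.22 in the labelled KO (-0.11 under TPM), an interaction of -0.23, and Atp5a1 stood at 0.02 in controls and fell by 0.20 in the labelled KO (-0.22). Ndufb2 (-0.54) lay between 0.582 and 1.60 FPKM and passed with 1 of the 12 libraries left out. No mitochondrial gene passed, with values between -0.73 and 0.67, whereas without control hemin replicate 3 the responses of mt-Nd4l (0.72) and mt-Nd5 (0.61) passed as higher in the labelled KO. Of the 10 genes with a lower response, 4 belong to complex I, 4 to complex IV and 1 each to complexes III and V, where complex I has 35 tested nuclear genes and complex IV 13. With control hemin replicate 3 left out, the nuclear genes with a lower response were 12 of 35 in complex I, 2 of 9 in complex III, 5 of 13 in complex IV and 5 of 16 in complex V.

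**Figure D5:**
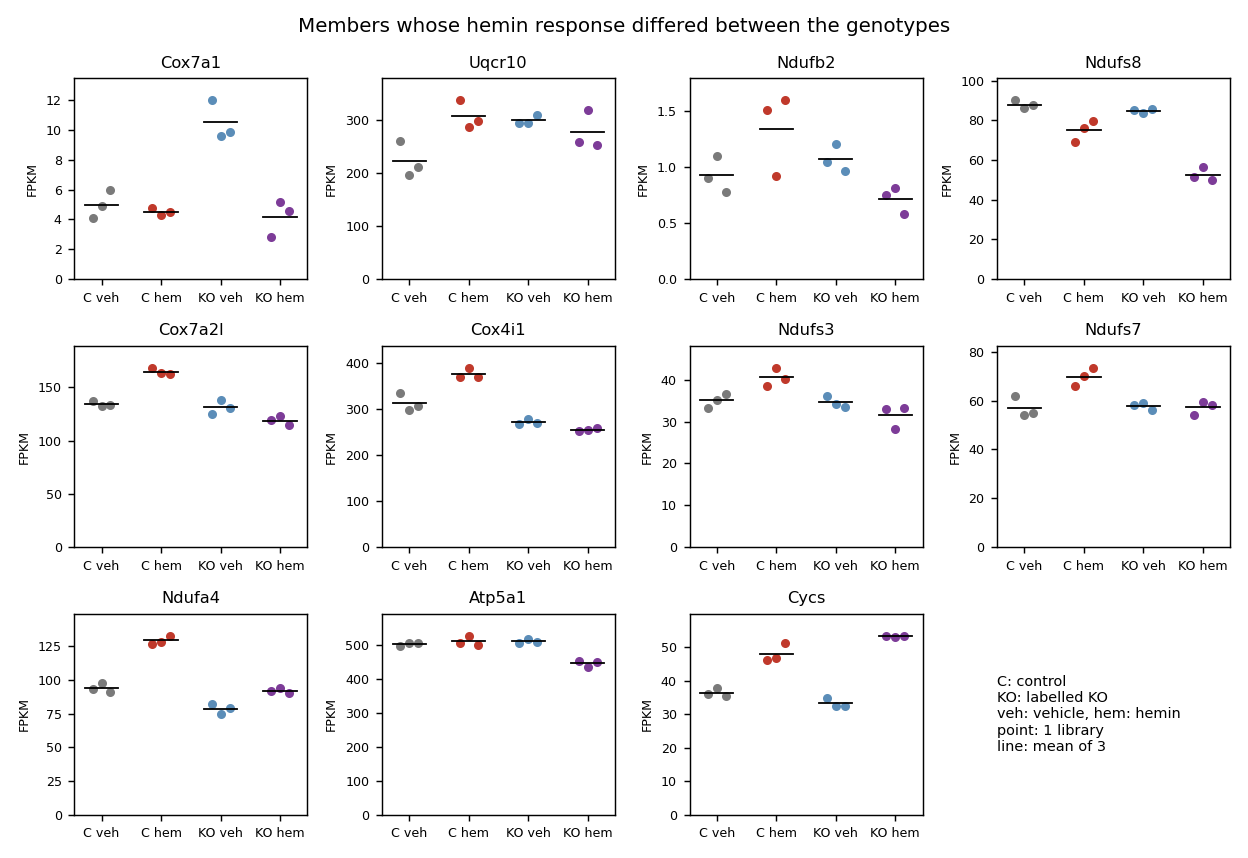
FPKM (y axis, from 0) of the 11 members whose hemin response differed between the genotypes, in each library (points, 3 per group) with the group mean (line). Cox7a1 is high in the labelled KO with vehicle (9.62 to 12 FPKM) and low in the other groups, Cox4i1, Cox7a2l, Ndufa4, Ndufs3 and Ndufs7 are highest in controls with hemin, and Cycs is highest in the labelled KO with hemin (52.9 to 53.5 FPKM).

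The hemin groups also differed from the vehicle groups in their cell markers, and fewer cells of a type and less RNA per cell cannot be told apart in these bulk libraries. The summed level of 8 cycling markers (Mki67, Top2a and others) was 254 to 280 FPKM in controls with vehicle and 97.0 to 114 FPKM with hemin, and 354 to 357 against 171 to 193 FPKM in the labelled KO. That of 7 goblet cell markers was 1373 to 1659 against 929 to 1324 FPKM in controls and 1492 to 1556 against 415 to 491 FPKM in the labelled KO, and that of 10 colonocyte markers 2963 to 3235 against 4840 to 7307 FPKM and 2047 to 2109 against 3214 to 4007 FPKM. The colonocyte sum follows Car1, a carbonic anhydrase, which rose by 1.18 and 1.11, whereas 6 of the 10 markers fell in controls and 2 rose, and 7 fell and 2 rose in the labelled KO. The 5 enteroendocrine markers summed to 23.8 to 42.3 FPKM in controls and 385 to 567 FPKM in the labelled KO. The sum of 9 epithelial markers was 8391 to 9374 against 8210 to 10324 FPKM in controls, where 4 rose and none fell, and 5972 to 6018 against 7680 to 8972 FPKM in the labelled KO, where 7 rose and 2 fell; with vehicle 5 of the 9 were lower in the labelled KO than in controls. The 8 stem and crypt markers summed to 71.0 to 75.2 against 37.3 to 48.9 FPKM in controls and 86.2 to 88.3 against 42.9 to 47.0 FPKM in the labelled KO. The part of these shifts in the values of the members was not tested.

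Genes that build, transcribe or regulate the complexes were followed in lists of their own. Of 45 tested assembly factors, which put the complexes together, 16 rose and 7 fell in controls and 9 rose and 9 fell in the labelled KO. For this and the lists that follow, 23.2% of all tested genes rose and 26.7% fell in controls and 29.9% and 30.4% in the labelled KO. In controls Lyrm7 of complex III assembly rose by 0.65, and Tmem126b of complex I and Sdhaf4 of complex II each by 0.59. In the labelled KO the 3 largest changes that passed were falls, of Sdhaf1 of complex II by 0.94, of Cox10, which makes the heme of complex IV, by 0.76 and of Foxred1 of complex I by 0.72. Cox10 stood at 11.4, 12 and 12.3 FPKM with vehicle and 7.04, 6.12 and 6.63 FPKM with hemin there, and its fall was larger than in controls (interaction -0.37). Sdhaf4 stood at 0.03 in the labelled KO, with an interaction of -0.56. Between the genotypes, Surf1, another complex IV factor, was lower in the labelled KO with vehicle (-0.37) and with hemin (-0.48), Ttc19 lower (-0.35) and Ndufaf7 higher (0.35) with vehicle, and Timmdc1 higher (0.60) and Sdhaf4 lower (-0.56) with hemin.

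Of 28 tested genes for copying, transcribing and processing the mitochondrial genome, 4 rose and 7 fell in controls and 1 rose and 15 fell in the labelled KO (medians -0.13 and -0.36). Without control hemin replicate 3 the control counts were 6 and 13, against 27.1% and 29.5% of all genes. Those of the labelled KO were then 2 and 17, against 34.6% and 34.3%. With all libraries in the fit, 15 of these genes fell in the labelled KO while 6 of the 13 mitochondrial mRNAs rose. Twnk, the helicase that unwinds mitochondrial DNA, stood at 6.5, 6.63 and 6.68 FPKM in controls with vehicle and 4.88, 6.04 and 5.67 FPKM with hemin, and at 9.77, 9.67 and 10.9 against 3.86, 3.80 and 3.64 FPKM in the labelled KO. It was higher in the labelled KO with vehicle (0.55) and lower with hemin (-0.45), and its interaction was -1.0. Fastkd2 and Tbrg4, RNA-binding proteins of mitochondria, fell in the labelled KO by 1.13 and 0.81, and in controls Supv3l1, an RNA helicase, fell by 0.71 and Fastkd2 by 0.68, while Mterf2 rose by 0.72. Tfam, the packaging and transcription factor of mitochondrial DNA, and Elac2, which cuts tRNAs out of the precursors, were higher in the labelled KO with vehicle (0.32 and 0.28), and Mterf2 and Mterf4 were lower with hemin (-0.73 and -0.29), Mterf4 with an interaction of -0.48.

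Of 14 tested regulators of mitochondrial biogenesis 1 rose and 7 fell in controls and 1 rose and 8 fell in the labelled KO. Myc fell by 1.40 and 1.33, from 75.2 to 83.9 FPKM with vehicle to 26.2 to 35.9 with hemin in controls. Pprc1, a coactivator of the PGC-1 family, fell by 1.26 and 1.27, Nrip1, a corepressor, by 0.70 in controls and Gabpb2 by 0.63 in the labelled KO. The rise in controls was that of Ppara, a receptor that drives fatty acid oxidation genes. It stood at 0.695 to 0.976 FPKM in controls with vehicle, 1.28 to 2.77 with hemin and 0.159 to 0.377 FPKM in the 6 libraries of the labelled KO. It reached 1 FPKM in the 3 control libraries with hemin alone and so passed the filter through the group where it was high, and its values are given as a description. Pprc1 was higher in the labelled KO with vehicle (0.31), and Ppargc1a (0.41) and Nrip1 (0.32) with hemin. Of 22 genes of other mitochondrial proteins 2 rose and 8 fell in controls and 5 rose and 11 fell in the labelled KO, among them the chaperone genes Hspa9, by 0.95 and 0.78, and Hspd1, by 0.85 and 0.89, and Phb2, a prohibitin, in the labelled KO by 0.84. Slc25a4, an ADP/ATP carrier that exports the product of complex V, rose from 14.5, 15.1 and 17.6 to 39.5, 42.8 and 33.9 FPKM in controls (1.25) and was higher in the labelled KO with vehicle (0.39), with an interaction of -0.53. Cs, citrate synthase, stood at 75.5, 73.5 and 71.8 against 110, 105 and 108 FPKM in the labelled KO and at 71.8 to 78.0 FPKM in the other 9 libraries, so that it was higher with hemin than in controls (0.50) and had an interaction of 0.58. Timm23 was higher (0.69) and Vdac3 lower (-0.40) in the labelled KO with hemin, Vdac2 (-0.44) and Vdac3 (-0.41) were lower with vehicle, and Vdac2 had an interaction of 0.42.

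Many nuclear members are known to be driven by the factors NRF1, GABP (an ETS factor), ERR and YY1, so their promoters were read. Of the 87 nuclear members 69 matched a RefSeq promoter (GRCm38.p6, 250 bases before to 50 after the start site), 66 of them tested. The NRF1 motif GCGCANGCG was in 30.4% of the matched members and in 7.03% of all 27025 genes with a promoter, the ETS motif CCGGAAG in 23.2% and 9.93%, the YY1 motif AAGATGGC in 14.5% and 3.19% and the ERR motif TCAAGGTCA in 2.90% and 0.466%, on either strand and counting overlapping matches. At least 1 of the 4 was in 56.5% of members and 18.2% of all genes. Promoters of 4 members are shown, those of Cycs, Ndufa1 and Cox7a1, on which results above turn, and that of Sdhd, whose change with hemin did not pass, as an example with matches to more than 1 motif, each as the 120 bases before the RefSeq start site, with motif matches in capitals (in the deposited annotation the last 27 bases of the Cox7a1 stretch lie in an exon): Cycs and Sdhd hold matches, and Ndufa1 and Cox7a1 hold none of the 4 in the bases searched. Sdhd also holds a match to ERR after the start site, outside the bases shown. They lie at chr6:50566570-50566689 on the - strand, chr9:50603850-50603969 on the - strand, chrX:37191239-37191358 on the - strand and chr7:30184051-30184170 on the + strand in the order listed.

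Cycs: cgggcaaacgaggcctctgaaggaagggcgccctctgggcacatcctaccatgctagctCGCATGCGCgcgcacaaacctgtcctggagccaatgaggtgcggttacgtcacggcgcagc

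Sdhd: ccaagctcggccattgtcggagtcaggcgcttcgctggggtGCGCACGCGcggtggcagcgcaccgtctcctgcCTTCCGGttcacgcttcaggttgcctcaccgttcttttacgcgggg

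Ndufa1: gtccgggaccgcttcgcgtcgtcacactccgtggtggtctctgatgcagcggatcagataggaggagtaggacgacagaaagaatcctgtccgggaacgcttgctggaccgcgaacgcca

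Cox7a1: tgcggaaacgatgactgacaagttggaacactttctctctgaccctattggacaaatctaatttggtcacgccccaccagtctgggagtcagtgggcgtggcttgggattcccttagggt

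The capitals in Cycs are a match to NRF1, and those in Sdhd a match to NRF1 followed by a match to ETS. Members with and without the NRF1 motif had near medians in the hemin response, 0.21 over 21 and 0.23 over 45 in controls and 0.17 and 0.12 in the labelled KO. In the comparison of the labelled KO with controls under hemin, 2 of the 21 with the motif and 13 of the 45 without it were lower (medians -0.03 and -0.18), against 14.7% of all tested genes. For ETS 2 of 16 with and 13 of 50 without were lower (medians -0.12 and -0.14), for YY1 3 of 10 and 12 of 56 (-0.17 and -0.12) and for ERR 0 of 2 and 15 of 64. The difference between members with and without a motif was not tested. A match is a string of letters and not a bound site.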

How the data were processed

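RNA sequencing of 12 colonoid libraries, 3 in each of 4 groups, was analysed from 1 deposited table of FPKM per gene. According to the submitters' processing notes the authors used fastp, HISAT2 2.0.5 and featureCounts 1.5.0-p3 with the mouse build mm10; strand and multi-mapping settings are not given in the sources used here. The deposited FPKM carry a scaling between libraries: their median-of-ratios factor was the same, 1.01, in each of the 12 libraries. The median change over all genes is therefore held near 0 on this scale. FPKM times gene length gave whole fragments (within 0.01 of a whole number) for all values, so fragments per library were recovered up to that scaling, at 11648801 to 25101868 per library. Intervals and tests cover the spread between libraries and counting error only.

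The 12740 genes at or above 1 FPKM in 3 or more libraries were fitted on the log2(FPKM + 1) scale with limma 3.58.1 in R 4.3.3, with 4 group means, 8 residual degrees of freedom and an intensity trend, and p-values were adjusted by Benjamini-Hochberg over all of them. Fold changes on this scale understate the change of low genes. Figures and sequence searches used Python 3.11.15, numpy 2.4.6, pandas 2.3.3 and matplotlib 3.10.9. The fit was tested on simulated data. Genes were named by rule: Hmox1, the mitochondrial genes, heme-binding, iron-sulfur and isoform genes, the 5 largest changes each way per comparison, members past an absolute log2 fold change of 1, and the 3 largest changes per comparison in each pathway list. Ndufc1, Cox6c, Uqcrb, Atp5j2, Uqcrq, Ndufs5, Uqcrc1, Atp5f1, Atp5l, Atp5k, Atp5a1, Atp5b, Ndufs3, mt-Rnr1 and mt-Rnr2 were named after their values were seen. The members and lists were chosen with earlier results of these data known. Alternatives were a pseudocount of 0.1, no filter or a mean FPKM of at least 5, TPM, scaling to nuclear protein coding genes, median-of-ratios scaling, a replicate block, no trend, only the groups compared, limma-voom on recovered fragments, each library left out and, added after seeing the data, a GC and length correction. Of these, median-of-ratios scaling could not change a result, because its factor was already the same in every library. The paper's own comparisons and sequence reads were not used here.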

Additional observations from a re-analysis of the deposited data

Results flagged for a closer look

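The hemin response of 11 members differed between the genotypes in the interaction of genotype and hemin (limma, log2 of FPKM + 1, Benjamini-Hochberg adjusted p over all tested genes). The difference, labelled KO less controls, was -1.06 for Cox7a1 (limma adjusted p = 0.0084), -0.59 for Uqcr10 (0.025), -0.54 for Ndufb2 (0.049), -0.45 for Ndufs8 (0.0049), -0.43 for Cox7a2l (0.0024), -0.35 for Cox4i1 (0.011), -0.34 for Ndufs3 (0.039), -0.31 for Ndufs7 (0.044), -0.23 for Ndufa4 (0.048), -0.22 for Atp5a1 (0.046) and 0.27 for Cycs (0.033). The share of all tested genes that passed was 13.3% with a higher and 10.5% with a lower response. The 10 lower responses among the 92 tested members lie near that share. With each of the 12 libraries left out in turn the differences of these genes kept their sign. Those of 4 genes passed each time. Their ranges were -1.19 to -0.86 for Cox7a1, -0.51 to -0.41 for Ndufs8, -0.47 to -0.40 for Cox7a2l and -0.40 to -0.32 for Cox4i1. The other 7 genes did not pass in 7 to 11 of the 12 fits. Under TPM only Cox7a1 and Uqcr10 passed.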

How the results depend on the processing

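Counts of members below are those that passed higher, then lower, in each comparison, against 36 and 2 for hemin in controls, 28 and 12 for hemin in the labelled KO, 0 and 21 for labelled KO against control with hemin, 3 and 5 with vehicle and 1 and 10 for the interaction. Rescaling to TPM gave 6 and 1, 3 and 21, 0 and 3, 3 and 1 and 0 and 2, and scaling to nuclear protein coding genes 29 and 6, 11 and 25, 0 and 33, 3 and 1 and 0 and 18. Of the members that had risen with hemin in the labelled KO, the response changed sign under TPM for Sdhc (-0.019), Ndufv2 (-0.054), Sdhb (-0.17), Ndufa4 (-0.11), Cox5a (-0.0080), Cox7c (-0.042) and Ndufa13 (-0.052), and scaled to nuclear genes for Sdhb (-0.032). The row Gm23935 held 16.8% to 29.0% of the FPKM sum in 3 libraries and 1.18% to 2.81% in the others, which bears on TPM. Without a filter 3 members were lower with vehicle and 5 in the interaction, and without the trend 3 were lower with vehicle. With only the groups compared, 0 fell with hemin in controls and 21 in the labelled KO, 11 were lower with hemin, and 6 were higher with vehicle. The GC and length correction, chosen after seeing the data, gave 47 and 0 for hemin in controls, 1 higher with hemin and 0 higher in the interaction. The cause was not tested.

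With each library left out, 30 to 54 members rose and 1 to 6 fell with hemin in controls, 24 to 38 and 10 to 19 in the labelled KO, 0 to 2 were higher and 13 to 38 lower with hemin, 1 to 4 and 1 to 9 with vehicle, and 0 to 3 and 4 to 24 in the interaction. The mitochondrial less the nuclear median ran from -0.07 to 0.47, 0.10 to 0.40, -0.28 to 0.18, -0.47 to -0.25 and 0.11 to 0.52 in that order. The highest counts, other than the 6, were those without control hemin replicate 3. The replicate block gave 3 lower with vehicle and 0 and 5 in the interaction. Same-numbered libraries did not deviate together (mean r = -0.04, other pairs 0.02, as a description over genes), so the numbers were not taken as pairs. Genes listed with few fragments, such as mt-Atp8 with 2 to 17, limit what could be detected.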
